A study of Mus musculus with 3 samples.

Results

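Srebf1, Mlxipl, Mlx, Nr1h3, Usf1, Thrsp, Mid1ip1 and Pnpla3 are regulators of fat synthesis and genes that act close to it. They were measured in brown adipose tissue taken whole, a fat depot that makes heat, and were taken by name: every non-control probe whose RefSeq accession belongs to one of these 8 genes was used, which gave 11 probes of 55678 on the array. All 11 were bright enough to be tested, and the 8 genes are 8 of 19329 genes and unnamed features tested. Each of 3 Agilent arrays held RNA of 1 Ad-Lkb1 mouse sample in the red dye Cy5 and of 1 wild-type littermate sample in the green dye Cy3. The Ad-Lkb1 samples came from 10-week-old males with strain given as C57BL/6J and the series title names the deletion of liver kinase B1 (LKB1, encoded by Stk11). The wild-type samples came from 10-week-old males with strain given as C57BL/6, and all mice ate regular chow. What drives the deletion, and in which cells, is not given in the sources used here. Dye, genotype and strain name run together on every array and cannot be told apart. The tissue was bulk, so fewer cells of a type and less RNA per cell cannot be told apart either.

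SREBP-1 (Srebf1) is a transcription factor held in the endoplasmic reticulum by SCAP and INSIG proteins, and once cut free it turns on genes of fatty acid synthesis. ChREBP (Mlxipl) does the same in response to sugar metabolites and binds DNA together with MLX. LXR alpha (Nr1h3) is a sterol-sensing nuclear receptor that can raise Srebf1 transcription. LKB1 activates the kinase AMPK, which is known to restrain fatty acid synthesis in several tissues.

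All values below are log2 ratios of the Ad-Lkb1 to the wild-type sample within an array, or log2 intensities of 1 channel. A gene with several probes is represented by its brightest probe. Tests are limma fits against 0 with Benjamini-Hochberg adjustment over all 19329 features and a threshold of 0.05. Intervals are 95% intervals of that fit.

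Of the 8 genes, Pnpla3, Mlxipl and Thrsp fell and 0 rose, and the other 5 did not pass (limma; at an unadjusted p under 0.05, 4 were lower and 0 higher). Over all features, 3.92% were called lower and 4.78% higher. The median log2 ratio of the 8 genes was -0.49, against -0.01 for all features. On single arrays the median of the 8 genes was -0.55, -0.13 and -0.63 on arrays 1 to 3. The mean ratio was below 0 for all 8 genes except with the scanner software's processed signals, where Nr1h3 had 0.04. It was below 0 on every array for 7 of the 8, which 27.7% of all features also showed. Srebf1 was the exception, with a positive value on array 2. In 6 of the 8 genes every Ad-Lkb1 level lay below every wild-type level, as did 18.6% of all features. By probe, 3 of 11 fell and 0 rose (4% and 4.73% of all kept probes), and 6 of 11 did not overlap (18.3%).

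**Figure D1:**
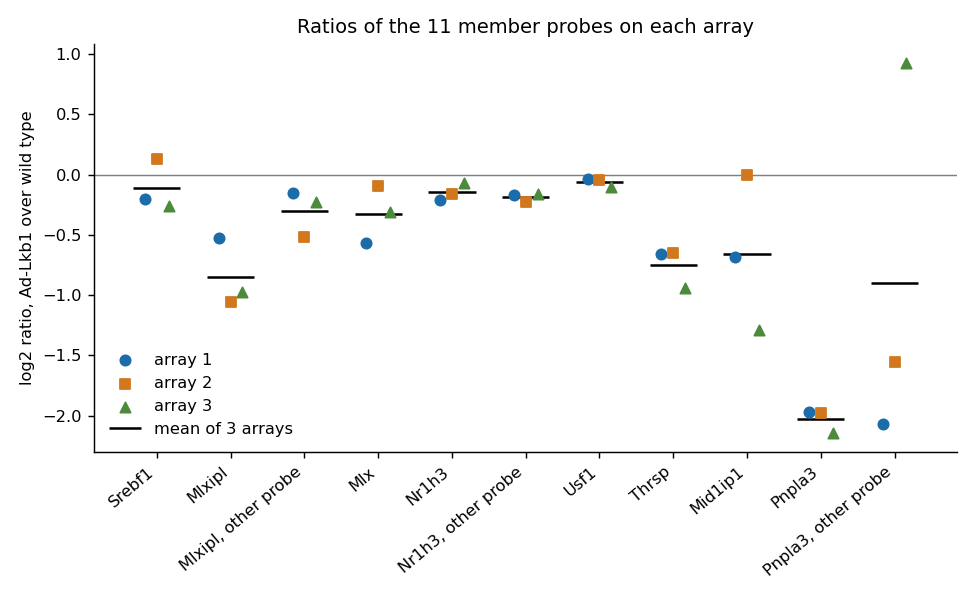
Log2 ratio of the Ad-Lkb1 to the wild-type sample (y axis) for the 11 probes of the 8 genes (x axis), with 1 symbol per array and a bar at the mean of 3 arrays. Pnpla3 lies near -2 on every array at its brighter probe, whereas its other probe has a ratio above 0 on array 3, and Srebf1, Nr1h3 and Usf1 stay close to 0.

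The tissue carried its defining markers: all 11 brown adipocyte markers and all 9 adipocyte markers were well above background in both genotypes. Stk11 had ratios of -1.26, -1.17 and -1.17 on arrays 1 to 3 (adjusted p = 0.0105). Whether its probe sits inside the deleted stretch was not analysed here. Ucp1, which encodes the uncoupling protein of heat production, rose by 1.48 (adjusted p = 0.0114). In a channel, 46.7% to 51.3% of features cleared background by the scanner's test, and 0 were saturated. Ratios of arrays 1 and 3 correlated across features with Pearson's r = 0.36, against 0.73 for arrays 1 and 2 and 0.50 for arrays 2 and 3, and features are not independent replicates. Of the markers measured, 5 of 11 brown adipocyte, 5 of 8 fibroblast and 3 of 6 T, B and mast cell markers rose and 0 fell. Of 8 endothelial markers, 1 rose and 1 fell. Over all features, 4.78% rose and 3.92% fell. The 3 that rose in the T, B and mast cell list were all mast cell genes. Among them, Cma1 was well above background in 0 and Cpa3 in 2 of the 3 wild-type samples. Both entered the test only through the Ad-Lkb1 channel, where they are higher, so their calls are not separate from that filter. The other 3, T cell genes, were not called and had ratios from -0.22 to -0.02, and no B cell gene was bright enough to be tested. With median centring 2 brown adipocyte markers rose and 3 fell, 2 fibroblast markers rose, 6 endothelial markers fell, and 3 T, B and mast cell markers rose and 2 fell. That centring called 9710 of all 19329 features lower and 389 higher. Skeletal muscle markers differed between single samples: the median ratio of the 6 measured was -3.31, 2.39 and 4.08 on arrays 1 to 3. Their summed intensity ran from 754 to 13947 in wild type and from 1017 to 17374 in Ad-Lkb1 samples, and its part in the results was not tested.

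The promoters of the 3 genes that fell are shown because the letters bound by these regulators can be looked for in them. RefSeq's table (GRCm38.p6) matched all 8 genes and holds 13 windows for them, each of 300 bases from 250 before to 50 after a transcript start. Capitals mark CCAAT (or its reverse complement ATTGG), the E-box CACGTG and TCACNCCAC. These are the letters of NF-Y, a common partner of SREBP, of the basic helix-loop-helix family that holds USF1, ChREBP and MLX, and of a sterol response element with 1 free base.
Pnpla3, chr15:84167566-84167865, plus strand: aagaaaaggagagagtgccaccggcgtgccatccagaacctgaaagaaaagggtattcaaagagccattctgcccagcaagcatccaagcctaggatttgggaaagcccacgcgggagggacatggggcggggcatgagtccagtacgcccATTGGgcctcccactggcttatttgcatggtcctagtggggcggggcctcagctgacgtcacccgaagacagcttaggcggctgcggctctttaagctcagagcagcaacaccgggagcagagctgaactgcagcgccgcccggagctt
Thrsp, chr7:97417501-97417800, minus strand: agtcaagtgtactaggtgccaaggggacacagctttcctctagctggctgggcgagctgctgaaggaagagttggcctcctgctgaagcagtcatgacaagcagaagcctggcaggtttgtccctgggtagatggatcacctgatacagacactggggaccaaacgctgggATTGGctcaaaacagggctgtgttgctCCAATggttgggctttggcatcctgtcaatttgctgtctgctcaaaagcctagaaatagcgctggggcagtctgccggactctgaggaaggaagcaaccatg
Mlxipl, upstream start, chr5:135089640-135089939, plus strand: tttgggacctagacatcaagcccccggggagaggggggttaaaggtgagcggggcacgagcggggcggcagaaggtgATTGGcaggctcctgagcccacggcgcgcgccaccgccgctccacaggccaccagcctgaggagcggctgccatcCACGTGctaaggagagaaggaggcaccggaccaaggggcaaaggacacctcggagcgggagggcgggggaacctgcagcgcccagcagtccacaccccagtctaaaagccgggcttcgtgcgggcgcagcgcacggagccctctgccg
Mlxipl, downstream start, chr5:135106641-135106940, plus strand: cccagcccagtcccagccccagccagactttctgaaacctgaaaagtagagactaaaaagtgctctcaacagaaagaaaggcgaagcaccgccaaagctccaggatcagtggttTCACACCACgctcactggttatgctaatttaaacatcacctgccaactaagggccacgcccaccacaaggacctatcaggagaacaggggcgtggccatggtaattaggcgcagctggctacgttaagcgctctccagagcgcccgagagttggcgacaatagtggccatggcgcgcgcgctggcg

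On either strand, CCAAT was found in 6 of the 13 windows (37.4% of 32851 promoters of that length in the table). Thrsp held it at 79 and 52 bases before the start, and Pnpla3 at 99 bases before. CACGTG was found in 2 windows, those of Mlx and of the upstream Mlxipl start, against 7.15% of all promoters. TCACNCCAC was found in 1 window, that of the downstream Mlxipl start, against 1.24%. GGGCGG, the Sp1 box, was found in 7 windows (35.7% of all). TATAAA was in 0 of the 13 (13.6% of all). The strict sterol response element, the carbohydrate response element (a pair of CACGTG with 5 bases between) and the DR4 element of LXR (a pair of AGGTCA with 4 bases between) were in 0 of the 13. Of all promoters, 0.0913%, 0.0% and 0.0152% hold these, so their absence from 13 windows carries no information. Looser forms of the carbohydrate and DR4 elements were not searched. The strict sterol element contains TCACNCCAC, and the exact carbohydrate form contains CACGTG. A match is a description of letters only.

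Srebf1 (chromosome 11, 60199084 to 60224186) had log2 intensities of 8.50, 8.42 and 8.37 in the wild-type samples of arrays 1 to 3. The Ad-Lkb1 samples of the same arrays had 8.30, 8.54 and 8.11. The groups overlapped, since the Ad-Lkb1 sample of array 2 was the highest of all 6 and the other pair lay below every wild-type sample. The mean log2 ratio was -0.11 ± 0.21 (SD, n = 3, adjusted p = 0.533), with an interval from -0.39 to 0.16. With median centring it was -0.71 and passed the threshold. RefSeq lists 3 starts for the gene, 1.95 and 10.2 kb apart, and SREBP-1a and SREBP-1c arise from different starts. A single probe measured Srebf1, so these forms were not told apart.

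Mlxipl (chromosome 5, 135089890 to 135139768) fell. Its brighter probe had 12.85, 13.27 and 12.92 in wild type and 12.33, 12.21 and 11.95 in Ad-Lkb1 samples. Every Ad-Lkb1 sample lay below every wild-type sample, and array 1 had the smallest difference. The mean log2 ratio was -0.85 ± 0.28 (SD, n = 3), 1.805-fold higher in wild type (adjusted p = 0.0335, interval from -1.19 to -0.52). The call was lost with the processed signals (-0.71, adjusted p = 0.08), the deposited value table (-0.83, adjusted p = 0.0725) and no filter on dim probes (adjusted p = 0.067).

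The other Mlxipl probe was dimmer, with 7.62, 8.25 and 8.09 in wild type and 7.46, 7.73 and 7.87 in Ad-Lkb1 samples. Here the groups overlapped, although the ratio was below 0 on every array. Its mean log2 ratio was -0.30 ± 0.19 (SD, n = 3, adjusted p = 0.131 over 25033 probes). On each array it was closer to 0 than that of the brighter probe, by 0.37, 0.54 and 0.74. The offset added after background correction draws the ratio of a dimmer probe further towards 0. The scanner software's own ratios on arrays 1 to 3 were -0.37, -0.71 and -0.24 at this probe. At the brighter probe they were -0.50, -1.06 and -0.91. With the mean of both probes the gene had -0.58 (adjusted p = 0.0483). RefSeq gives starts for Mlxipl 17 kb apart. ChREBP-beta is made from the upstream one. Both probes carry the same accession, so the alpha and beta forms were not told apart.

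Mlx (chromosome 11, 101086707 to 101092207), the DNA-binding partner of ChREBP, had 9.46, 9.21 and 9.17 in wild type. The Ad-Lkb1 samples had 8.90, 9.11 and 8.86. The highest Ad-Lkb1 sample, on array 2, lay just under the lowest wild-type sample. The mean log2 ratio of -0.32 ± 0.23 (SD, n = 3) did not pass (adjusted p = 0.143, interval from -0.62 to -0.03, unadjusted p = 0.0369).

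Nr1h3 (chromosome 2, 91184061 to 91202829), which encodes LXR alpha, varied little. Its brighter probe had 11.59, 11.66 and 11.53 in wild type and 11.39, 11.501 and 11.47 in Ad-Lkb1 samples. The other probe had 11.12, 11.34 and 11.07 against 10.95, 11.11 and 10.90. The groups did not overlap at the first probe and did at the second. Their log2 ratios were -0.14 ± 0.072 (SD, n = 3, adjusted p = 0.265) and -0.19 ± 0.036 (adjusted p = 0.146), and both turned to 0.04 with the processed signals. With median centring the gene had -0.85 and passed the threshold. The interval at the brighter probe ran from -0.33 to 0.04.

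LXR alpha is also expressed in macrophages, whose markers differed between the groups. Of 11 measured macrophage markers, 5 rose and 0 fell (limma; 9 and 0 at an unadjusted p under 0.05), with a median log2 ratio of 1.51. At the adjusted threshold, 4.78% of all features rose and 3.92% fell. Adgre1, Cd68 and Csf1r had 1.88, 2.24 and 0.95. Their summed intensity ran from 3243 to 6184 in wild type and from 10040 to 11179 in Ad-Lkb1 samples. With no filter on dim probes 0 of the markers passed, and without array 3, 9 did. The part of macrophages in the Nr1h3 values was not tested.

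Usf1 (chromosome 1, 171411307 to 171418954) encodes an E-box-binding factor that acts on lipogenic promoters. It had 6.25, 6.42 and 6.49 in wild type and 6.22, 6.38 and 6.38 in Ad-Lkb1 samples. The groups overlapped. The mean log2 ratio was -0.06 ± 0.038 (SD, n = 3, adjusted p = 0.615, interval from -0.24 to 0.12). The spots were dim, with a green signal of 62 to 85 over a local background of 43 to 45, so the offset added after background correction draws this ratio towards 0. The scanner software's own ratio averaged -0.28 (adjusted p = 0.278).

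**Figure D2:**
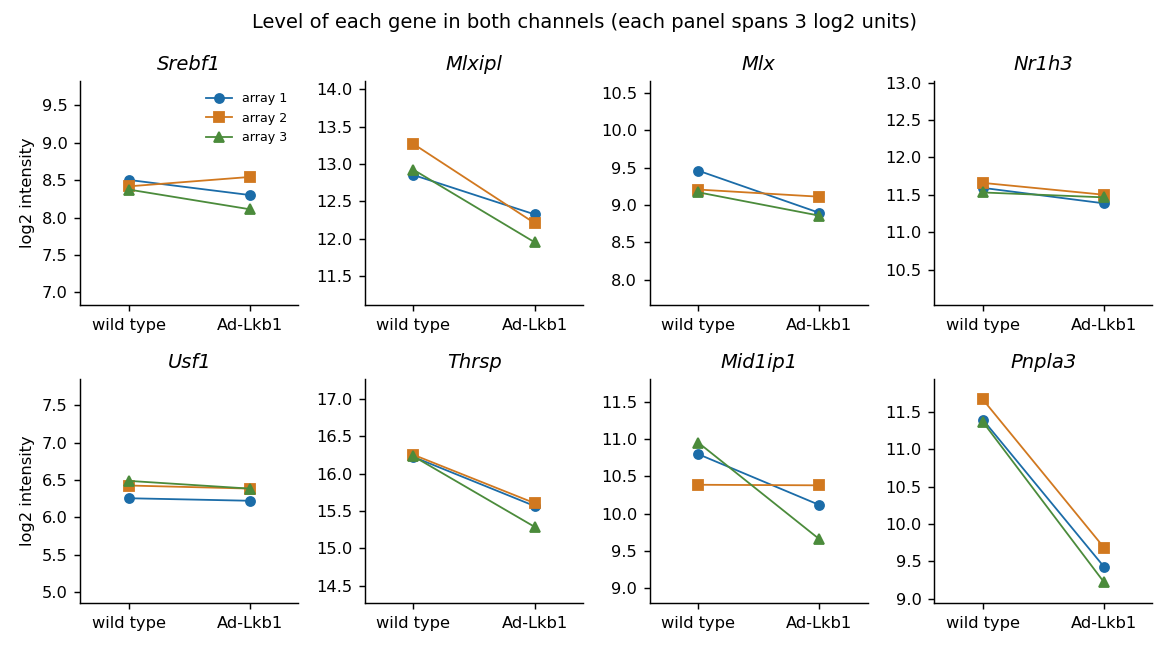
Log2 intensity (y axis) of the 8 genes at their brightest probe in the wild-type and the Ad-Lkb1 sample (x axis), with a line joining the samples of 1 array. All lines fall steeply for Pnpla3, Thrsp has nearly equal wild-type levels on the 3 arrays, and the line of array 2 is flat for Mid1ip1.

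Thrsp (chromosome 7, 97412933 to 97417550) encodes Spot 14, a nuclear protein of lipogenic tissues that responds to thyroid hormone and carbohydrate. It fell. The wild-type samples had 16.23, 16.25 and 16.23, and the Ad-Lkb1 samples 15.57, 15.61 and 15.29. Wild-type samples lay within 0.029 of each other, and every Ad-Lkb1 sample lay below them, lowest on array 3. The mean log2 ratio was -0.75 ± 0.17 (SD, n = 3), 1.68-fold higher in wild type (adjusted p = 0.0251, interval from -0.99 to -0.51). The call held under all 8 alternatives that keep 3 arrays, with ratios from -1.43 to -0.75.

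Mid1ip1 (chromosome X, 10717365 to 10719702) encodes MIG12, a relative of Spot 14 that promotes assembly of acetyl-CoA carboxylase into filaments. Its wild-type levels were 10.80, 10.39 and 10.95. The Ad-Lkb1 levels were 10.12, 10.38 and 9.66. The groups touched on array 2, where the samples of both genotypes differed by 0.0074, and array 3 had the widest gap. The log2 ratios of -0.68, -0.01 and -1.29 had a mean of -0.66 ± 0.64 (SD, n = 3, adjusted p = 0.177, interval from -1.33 to 0.01). Of all features, 3.22% had an SD at least as large. Thrsp and its relative thus had similar means, and the call for Mid1ip1 was missed with the wider spread.

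Pnpla3 (chromosome 15, 84167776 to 84189521) encodes adiponutrin, a lipid droplet protein and a target of SREBP-1 and ChREBP. It fell the most of the 8. The brighter probe had 11.40, 11.67 and 11.37 in wild type and 9.43, 9.68 and 9.22 in Ad-Lkb1 samples. The groups were far apart. The mean log2 ratio was -2.03 ± 0.098 (SD, n = 3), 4.09-fold higher in wild type (adjusted p = 0.0105, interval from -2.23 to -1.83). It ranked 6 from the lowest of the 19329 features.

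The other Pnpla3 probe, with the same accession, did not repeat this on every array. It had 10.93, 9.30 and 7.90 in wild type and 8.86, 7.75 and 8.83 in Ad-Lkb1 samples. Its log2 ratios were -2.07, -1.56 and 0.93, so arrays 1 and 2 lay near the brighter probe and array 3 differed from it by 3.08. Its mean of -0.90 ± 1.60 (SD, n = 3) did not pass (adjusted p = 0.408 over 25033 probes). Without array 3 it had -1.81 and passed (adjusted p = 0.00863). The wild-type level of this probe spanned 3.03 log2 units, a range that 0.212% of kept probes reached, whereas the brighter probe spanned 0.30. The signals behind it were 2869, 897 and 322 in green, over a local background of 39 to 43, and 245, 116 and 298 in red. The mean of both probes gave the gene -1.46, not past the threshold (adjusted p = 0.0576). Summed muscle marker intensity was 13947, 2820 and 754 in the wild-type samples of arrays 1 to 3 and 1017, 17374 and 16387 in the Ad-Lkb1 samples, and its part in this probe's values was not tested.

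**Figure D3:**
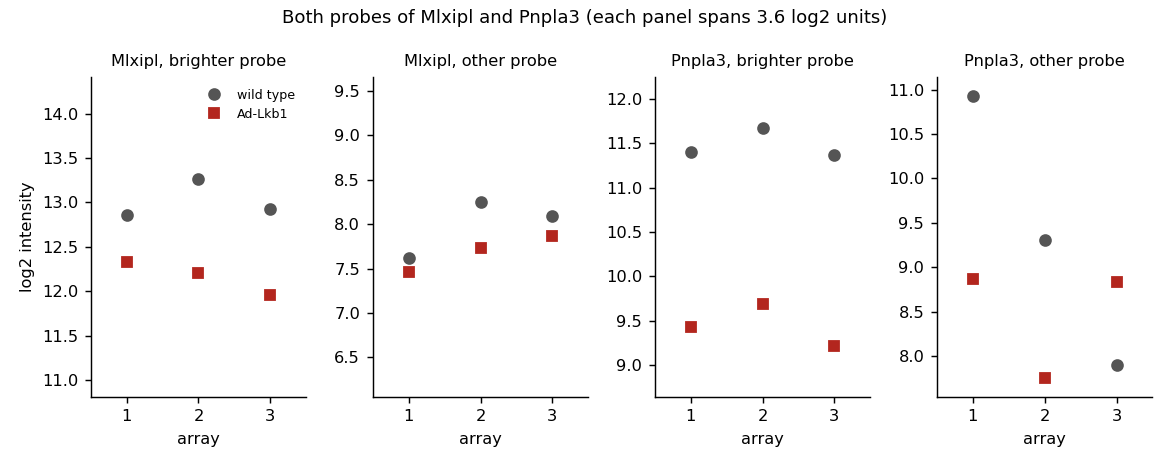
Log2 intensity (y axis) of both probes of Mlxipl and of Pnpla3 on arrays 1 to 3 (x axis), wild type as grey circles and Ad-Lkb1 as red squares. At the other Pnpla3 probe the wild-type level goes from 10.93 on array 1 to 7.90 on array 3, where it lies below the Ad-Lkb1 level.

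Leaving out array 1 or array 2 ended the calls of all 3 genes. The log2 ratios then stayed between -2.06 and -0.75 for these genes, and limma called 0 features in either case (3928 and 3562 at an unadjusted p under 0.05). Without array 3 the 3 genes passed, with -1.98 for Pnpla3, -0.79 for Mlxipl and -0.65 for Thrsp. Where loess was replaced by centring on the median, all features had a median of -0.42. It called 9710 of all 19329 features lower and 389 higher, and 7 of the 8 genes lower, all but Usf1. The processed signals called 230 lower and 881 higher.

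Of 5 measured close relatives of these genes, 0 were called (limma; 3 lower and 0 higher at an unadjusted p under 0.05), against 3.92% of all features lower. With median centring all 5 were called lower, as were 9710 of all 19329 features. With no background subtraction 1 was called lower, Srebf2. SREBP-2 (Srebf2), which drives cholesterol synthesis, had -0.38 ± 0.12 (SD, n = 3, adjusted p = 0.0599). It had -1.02 in the deposited value table and -0.04 with the mean of its probes. Its other probe had 0.31 and cleared background in the wild-type channel on 2 of 3 arrays. Mlxip, also called MondoA, had -0.38, or -1.14 in the deposited value table, where it did not pass either, and it passed without array 3 (-0.54). Nr1h2, which encodes LXR beta, had -0.21, and from -0.92 to -0.02 over the alternatives. Pnpla2, the main triglyceride lipase of fat and a relative of Pnpla3, had 0.14, -0.06 and 0.16 on arrays 1 to 3, a mean of 0.08 whose sign turned under 4 alternatives, to -0.61 with median centring. Usf2 had 0.00 with a sign that likewise turned. Differences between each gene and its relative were not tested. Pnpla5 was too dim to be tested.

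Genes that handle SREBP proteins included 1 that fell, Insig1, which holds SCAP in the endoplasmic reticulum and is itself an SREBP target (-1.58, adjusted p = 0.0168). Of 10 measured, 0 rose, and the median was -0.22. Over all features, 3.92% were called lower and 4.78% higher. With median centring 8 of 10 fell, as did 9710 of all 19329 features. SCAP, the escort (Scap), had -0.36 (adjusted p = 0.0514) and passed under 3 alternatives: median centring, the mean of the gene's probes and no filter on dim probes. Insig2 had 0.40, or -0.30 with median centring, not past the threshold in either. Among 7 measured partners of MLX and MAX, 1 rose and 0 fell, and with median centring 5 fell. The gene that rose was Myc (0.81), which had 2.14 in the deposited value table and 2.27 with the processed signals. Mnt and Mxd4, which bind MAX as repressors, had -0.25 and -0.37 and, of the alternatives that keep 3 arrays, passed with median centring only. Of 10 partners and cofactors of LXR, 1 rose and 0 fell, and with median centring 0 rose and 9 fell. The one that rose was the coactivator Ncoa1 (0.43), which turned to -0.27 with median centring and passed under 2 of 8 alternatives that keep 3 arrays. The receptors Rxrg and Rxrb, and the coactivator Ppargc1b, had -0.38, -0.28 and -0.40 and likewise passed with median centring only.

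Target genes of SREBP-1 were mostly lower, although Srebf1 itself did not pass. Of 14 measured, 9 fell and 0 rose, against 3.92% and 4.78% of all features, and the median log2 ratio was -1.18. Fatty acid synthase (Fasn) had -1.40 ± 0.092 (SD, n = 3), and the carboxylase Acacb had -1.37. The acetate-activating Acss2 and the citrate carrier Slc25a1 had -1.70 and -1.88. The 5 that did not pass lay between -0.50 and 0.02. Of 17 measured SREBP-2 targets, 9 fell and 0 rose, with a median of -0.90, and all 17 had ratios below 0. Among them were Fdft1 (-1.74), Idi1 (-1.39), Lss (-1.06) and Sc5d (-1.04), enzymes of cholesterol synthesis.

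ChREBP targets were also more often lower than higher. No gene was put on both the SREBP-1 and the ChREBP list, although ChREBP too turns on genes of fatty acid synthesis. The medians of these lists therefore do not tell SREBP-1 from ChREBP. Of 9 measured, 5 fell and 1 rose, against 3.92% and 4.78% of all features, with a median of -0.49. The transketolase Tkt had -0.75, the transcription factors Bhlhe40 and Klf10 had -1.12 and -0.86, and the glucose transporter Slc2a4 had -0.49. The arrestin-like Arrdc4 had -0.55, or -0.26 with the mean of its probes (adjusted p = 0.0947), and its call was lost under 4 of 8 alternatives that keep 3 arrays. The gene that rose was Fgf21 (0.48, and up to 2.98 with the processed signals), a secreted hormone, named here after its value was seen, as was Arrdc4. In wild type Fgf21 was not well above background on any array, so it entered the test only through the Ad-Lkb1 channel. Its measured level there was 1.39-fold higher. That ratio rests on the probe's own dim level in wild type, so it is not a firm minimum and is open to dye bias. With the processed signals or the deposited value table, 2 ChREBP targets fell, and the processed signals called 230 of all features lower.

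LXR targets had no single direction across the scalings. Of 12 measured, 5 rose, 1 fell and 6 were not called, against 4.78% higher and 3.92% lower over all features. The median was 0.21, or -0.27 with median centring, which called 3 higher and 5 lower (389 and 9710 of all features). With the deposited value table or with no filter on dim probes 2 were called higher, Apoc2 and Abcg1. The apolipoprotein gene Apoc2 had 1.48, the sterol exporter Abcg1 1.38 and the phospholipid transfer protein Pltp 0.76. Lpl and Apoe, named here after their values were seen, had 1.19 and 1.02. With median centring Pltp had 0.08, Apoe 0.33 and Lpl 0.50, and of these Lpl passed. Lpcat3, which builds polyunsaturated phospholipids, fell by 0.97 on the log2 scale and did not pass with the processed signals. Several LXR targets are expressed in macrophages, and Mertk stands on both lists. The median ratio of the LXR targets was 0.28, 0.07 and 0.36 on arrays 1 to 3. That of the macrophage markers was 1.62, 2.21 and 0.57. The part of macrophages in the LXR target values was not tested. Nr1h3 itself, as given above, did not pass.

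**Figure D4:**
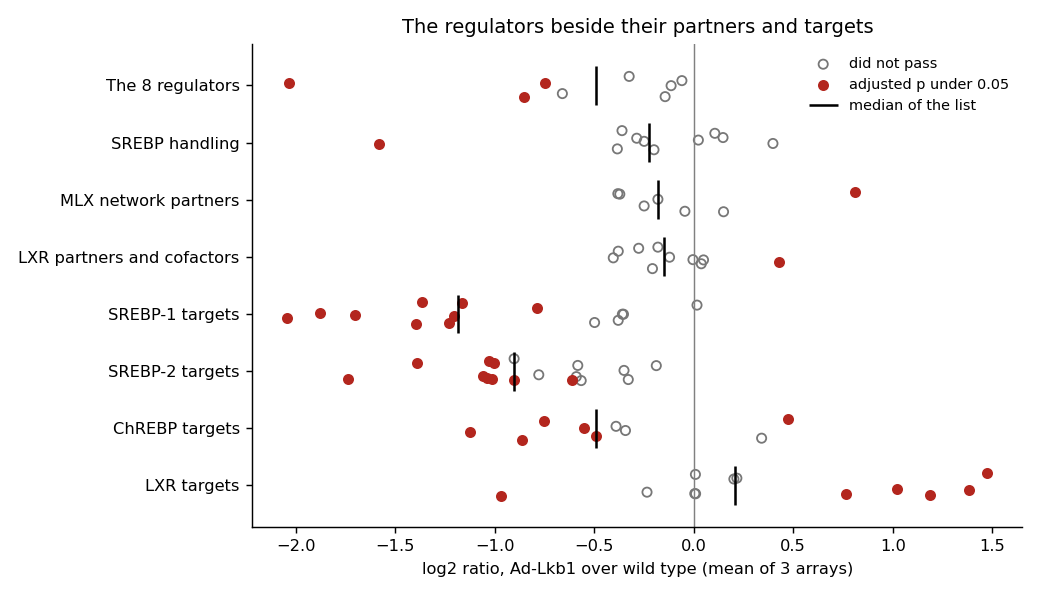
Mean log2 ratio of the Ad-Lkb1 to the wild-type sample (x axis) for each measured gene of the 8 regulators and of 7 lists of partners and targets (y axis), filled where the adjusted p was under 0.05, with a line at each median. Targets of SREBP-1 and SREBP-2 have medians of -1.18 and -0.90, the partner lists have medians near 0 with Insig1 (-1.58) and Myc (0.81) away from them, and LXR targets spread to both sides.

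Adipocyte markers had 0 of 9 called in either direction (limma, with 3 lower and 1 higher at an unadjusted p under 0.05). With median centring, however, 7 of 9 fell, as did 9710 of all 19329 features. How far these markers follow the share of fat cells was not tested. The median of the markers was -0.13, or -0.82 with median centring, and 6 of the 9 ratios were below 0. Their summed intensity ran from 161386 to 187087 in wild type and from 195798 to 201791 in Ad-Lkb1 samples. That sum gives most weight to the brightest gene, Fabp4, which had 0.48, or -0.19 with median centring.

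The genes whose ratios on the 3 arrays lay nearest to those of each gene that fell were found by Euclidean distance among 13124 named genes. For Pnpla3 they were Acsm3, an acyl-CoA synthetase, at 0.19, Aacs, which activates acetoacetate and stands on the SREBP-1 target list, at 0.36, and the thioesterase Acot1 at 0.48. For Thrsp they were the kinase gene Mapkapk3, the phosphatase gene Impa2 and the transcription factor Stat5a, at 0.07, 0.08 and 0.08. For Mlxipl they were Tgoln1, Akap1 and Ppa1, at 0.11, 0.15 and 0.17. A distance over 3 arrays describes likeness of level only.

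**Figure D5:**
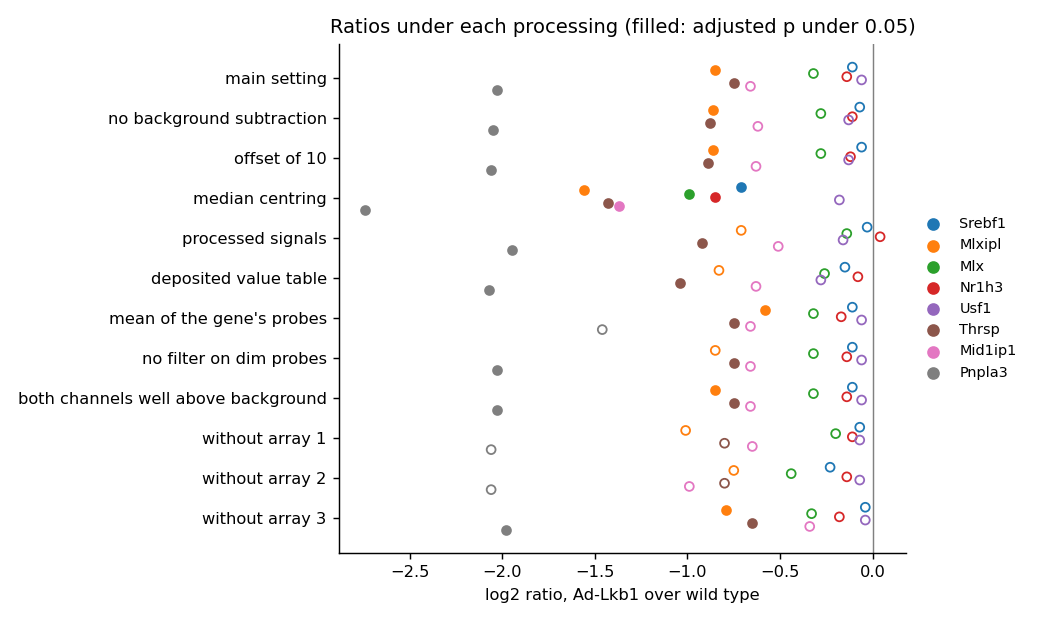
Log2 ratio (x axis) of the 8 genes under the main processing, 8 alternatives and with 1 array left out (y axis), filled where the adjusted p was under 0.05. Pnpla3 stays between -2.74 and -1.46. With median centring 7 of the 8 genes pass the threshold, and 9710 of all 19329 features were called lower.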

How the data were processed

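The submitters' processing notes name Agilent Feature Extraction 11.5. Per the file headers, the deposited scanner files give each spot's median intensity and local background in both channels, a processed intensity, and the software's log10 ratio (red to green). In the value table the authors gave that log10 ratio again, since matching feature numbers correlated at 1.0 and differed by at most 0.0049. Its median was 0, with the ratio set to 0 by the software on 26.8% to 27.8% of features. Array annotation follows mm9 per the file headers.

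Median signals were corrected in limma 3.58.1 (R 4.3.3) by normexp with an offset of 50, then normalized by loess within arrays, with control spots at weight 0. Control and outlier spots and displaced or incomplete rows (3 on array 1 and 2 on array 3) were left out. Probes that cleared background in 1 channel or both on all 3 arrays were kept (25033 of 55678). Symbols came from RefSeq accessions (GRCm38.p6), and 28019 probes matched 1 symbol. A gene took its brightest kept probe. Log2 ratios were tested with an intercept-only lmFit and eBayes; the code was tested on simulated data. Levels per channel are after Aquantile normalization. The number of arrays, 3, limits precision, and p-values measure the spread between these littermate pairs. The 8 genes and all lists were chosen with earlier results of these data known. Named genes were the 8 genes, Stk11 and Ucp1, up to 4 of each partner or target list with the smallest p, measured relatives, up to 3 markers, and the nearest genes. Motifs were likewise chosen with those results known.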

Additional observations from a re-analysis of the deposited data

How the results depend on the processing

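Direction held for all 8 genes under every alternative except Nr1h3, which had 0.04 with the processed signals at either probe. The ratio within an array already pairs the samples, so no separate paired analysis was run. Median centring gave Srebf1 -0.71, Mlx -0.99, Nr1h3 -0.85 and Mid1ip1 -1.37, all past the threshold, so that 7 genes were called lower, with 9710 features lower and 389 higher. Mlxipl did not pass with the processed signals (-0.71), the deposited value table (-0.83) or no filter on dim probes (-0.85), and Pnpla3 did not with the mean of its probes (-1.46). Features called lower were 230 with the processed signals, 280 with the deposited value table and 492 with no filter, and features called higher were 526 and 541 with the last pair. With 1 array left out, ratios ran from -2.06 to -1.98 for Pnpla3, from -1.01 to -0.75 for Mlxipl, from -0.80 to -0.65 for Thrsp, from -0.23 to -0.04 for Srebf1, from -0.44 to -0.20 for Mlx, from -0.18 to -0.11 for Nr1h3, from -0.07 to -0.04 for Usf1 and from -0.99 to -0.34 for Mid1ip1. Genes called lower then ran from 0 to 3, features called lower from 0 to 720 and features called higher from 0 to 1332. SREBP-1 targets called lower ran from 8 to 13 over the alternatives that keep 3 arrays, and SREBP-2 targets from 4 to 17. Signal over background limits Usf1, Srebf2 and Mlxip, among others. The cause of each change was not tested.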
